A study of Homo sapiens with 10 samples.

Results

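The genes described here are 9 chemokine genes, namely CXCL1, CXCL2, CXCL3, CXCL5, CXCL8, CXCL14, CCL2, CCL20 and the receptor gene CXCR4, taken by their symbols from the 36432 genes of an RNA-seq table. Chemokines are small secreted proteins that bind G protein-coupled receptors on other cells and direct their movement. CXCL1, CXCL2, CXCL3, CXCL5 and CXCL8 carry a Glu-Leu-Arg motif ahead of the first cysteines, bind CXCR1 or CXCR2 and draw neutrophils, and their transcription is induced through NF-kB in many cell types. Triple-negative breast cancer lines, which lack the estrogen and progesterone receptors and HER2 amplification, often secrete CXCL8 and the CXCL1 group.

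The cells were MDA-MB-231, an established human triple-negative breast cancer line. 3 BACH1 KO clones and 2 WT control clones were each held for 40 hours in medium with 0 or with 4.5 g/liter glucose, which gave 3 KO and 2 WT libraries at 0 g/liter and 3 KO and 2 WT libraries at 4.5 g/liter. BACH1 is a heme-regulated transcription factor. The study describes it as a repressor of antioxidant genes and as an activator of metastasis genes, CXCR4 among them. Its gene was disrupted with Cas9 protein and guide RNAs. Each line was grown from 1 cell and gave 1 library per glucose level, so in each medium 3 KO clones were compared with 2 WT clones. The main test took 1 estimate of spread from all 10 libraries and treated the 2 libraries of a clone as independent. The question asked of these genes was how their mRNA levels differed without glucose and without BACH1.

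Values are TPM, a share of all transcripts scaled for transcript length, and carry no record of sequencing depth. From 12259 to 12910 genes reached 1 TPM in each library. BACH1 mRNA was at 2.84 to 5.18 TPM in KO clones, against 8.13 and 8.61 TPM in WT clones, at 4.5 g/liter. At 0 g/liter it was at 12.6 to 23.9 TPM in KO clones, against 19.7 and 20.6 TPM in WT clones, so the transcript was still measured in KO clones and the genotypes overlapped. The protein was not measured in these data, but the study identified its BACH1 knockout MDA-MB-231 cells by Western blot. HMOX1, a heme oxygenase gene that BACH1 represses, was at 274 to 470 TPM in KO clones, against 6.58 and 8.78 TPM in WT clones, at 4.5 g/liter, and at 1356 to 2033 TPM in KO clones, against 532 and 568 TPM in WT clones, at 0 g/liter. The 8 markers of the MDA-MB-231 line summed to 4567 to 5821 TPM. Their means over the 10 libraries ran from 3.30 TPM for SPARC and 92.7 TPM for EGFR, the lowest, to 1599 TPM for VIM. Of 8 markers of luminal and receptor-positive breast cells, ESR1, the estrogen receptor gene, averaged 0.553 TPM over the 10 libraries. PGR and FOXA1 averaged 0.26 and 0.25 TPM. The other 5 were higher, with means of 254.8 TPM for KRT18, 248.5 for KRT8, 26.8 for ERBB2, 23.7 for GATA3 and 8.12 for EPCAM. Among the 11 leukocyte markers, MS4A1, FCGR3B and S100A12 were at 0 in every library. The sum of the 11 markers was 2.19 to 4.63 TPM in KO and 4.86 to 4.90 TPM in WT libraries at 0 g/liter, and 1.53 to 1.96 TPM in KO and 2.38 to 2.57 TPM in WT libraries at 4.5 g/liter. Most of this sum came from CD14 and CSF1R. The part of this rise in the chemokine results was not tested.

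On GRCh38, 5 of the 9 genes lie on chromosome 4 within 358678 bases. By GENCODE release 44, CXCL8 is at chr4:73740519-73743716 and CXCL1 at chr4:73869393-73871308, both on the plus strand. CXCL5 is at chr4:73995642-73998677, CXCL3 at chr4:74036589-74038807 and CXCL2 at chr4:74097040-74099196, all on the minus strand. CXCL14 is at chr5:135570679-135579279 on the minus strand, CCL20 at chr2:227805739-227817564 on the plus strand, CXCR4 at chr2:136114349-136119177 on the minus strand and CCL2 at chr17:34255274-34257208 on the plus strand.

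The promoters of CXCL8, CXCL1, CXCL2 and CXCL3 are shown because these had the highest mean levels of the 9 genes and lie in 1 cluster. Each line holds the 150 bases before the start that RefSeq gives on GRCh38.p14, read 5′ to 3′ on the strand of the gene. The stretches are chr4:73740419-73740568 for CXCL8, chr4:73869243-73869392 for CXCL1, chr4:74099196-74099345 for CXCL2 and chr4:74038690-74038839 for CXCL3. Capitals mark matches to GGAATTTCC, a kappa-B sequence bound by NF-kB, and to TGANTCA, an AP-1 sequence. For CXCL8, CXCL3 and, by 1 base, CXCL2, the outermost start in GENCODE lies inside the stretch.
CXCL8: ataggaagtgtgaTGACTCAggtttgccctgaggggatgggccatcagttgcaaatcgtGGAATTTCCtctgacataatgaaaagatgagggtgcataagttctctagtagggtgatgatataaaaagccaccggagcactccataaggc
CXCL1: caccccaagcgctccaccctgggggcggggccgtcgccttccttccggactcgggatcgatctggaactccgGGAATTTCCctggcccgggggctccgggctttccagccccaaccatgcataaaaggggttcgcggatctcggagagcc
CXCL2: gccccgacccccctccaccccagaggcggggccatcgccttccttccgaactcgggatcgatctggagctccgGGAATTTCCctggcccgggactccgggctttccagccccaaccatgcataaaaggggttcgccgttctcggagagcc
CXCL3: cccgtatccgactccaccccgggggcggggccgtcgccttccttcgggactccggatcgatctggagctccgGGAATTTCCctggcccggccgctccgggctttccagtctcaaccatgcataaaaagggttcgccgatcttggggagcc

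GGAATTTCC was found, on either strand, within 250 bases before the start of 5 of the 8 genes that the RefSeq table held, which were CXCL1, CXCL2, CXCL3, CXCL5 and CXCL8, and in 117 of 27305 promoters of the same length (0.428%). Counted from the start, it lay from -78 to -70 in CXCL1 and CXCL3, from -77 to -69 in CXCL2, from -90 to -82 in CXCL5 and from -91 to -83 in CXCL8. These promoters are related: those of CXCL1, CXCL2 and CXCL3 had 78.4% to 84% of the 250 bases identical when aligned in pairs, against 50% to 63.2% in the other 25 pairs. TGANTCA was found in CXCL8 and CXCL14 and in 6.60% of all promoters. GCTGANTCA, the longer form bound by BACH1 with small MAF proteins, was in none of the 8 and in 1.11% of all promoters, and TGATGNAAN, an ATF4 and C/EBP sequence, was in none of the 8 and in 3.18%. GCTGANTCA holds TGANTCA within it. For kappa-B only the exact letters GGAATTTCC were sought, so a promoter without a match may hold another kappa-B sequence. A match is a run of letters in this window and was not measured as a bound site in these data. For CXCL14, the study reported by chromatin immunoprecipitation that BACH1 and ATF4 were at its promoter, with more of both without glucose. Where that site lies relative to this window was not examined here.

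Without glucose, CXCL8, CXCL2 and CXCL3 mRNA rose in both genotypes, by 2.56 to 6.74 times in KO clones and by 4.22 to 12.5 times in WT clones. CXCL14 and CCL20 were also called higher in KO clones and CXCL1 and CCL20 in WT clones, and each of these calls was lost when certain single libraries were left out. None of the 9 genes was called lower without glucose, and none was called between KO and WT clones by the test across all genes. The test was limma on log2(TPM + 1), with p-values adjusted by Benjamini-Hochberg over the 13418 genes that reached 1 TPM in at least 2 libraries, and adjusted p-values under 0.05 counted as calls. Because 1 was added before taking logs, low genes changed more than their log2 fold change shows. Of the 9 genes, 3 (CXCL1, CXCL2 and CXCL8) were at or above 1 TPM in all 10 libraries, 4 (CXCL3, CXCL14, CCL20 and CXCR4) were below 1 TPM in some, and CXCL5 and CCL2 were below 1 TPM in all 10 and were not tested. CXCL14 and CXCR4 reached 1 TPM in 3 libraries each, all at 0 g/liter, so their entry into the test depended on the group in which they were higher. In KO clones 5 of the 9 genes, of which 7 were tested, were called higher at 0 g/liter and none lower. The shares of all tested genes were 9.05% higher and 19.9% lower. CXCL14 is among the 5, so this count is not independent of the filter. In WT clones 5 were called higher and none lower, where 7.47% were called higher and 15.9% lower. These are bulk values of whole cultures, in which fewer cells expressing a gene and less RNA per cell cannot be told apart.

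**Figure D1:**
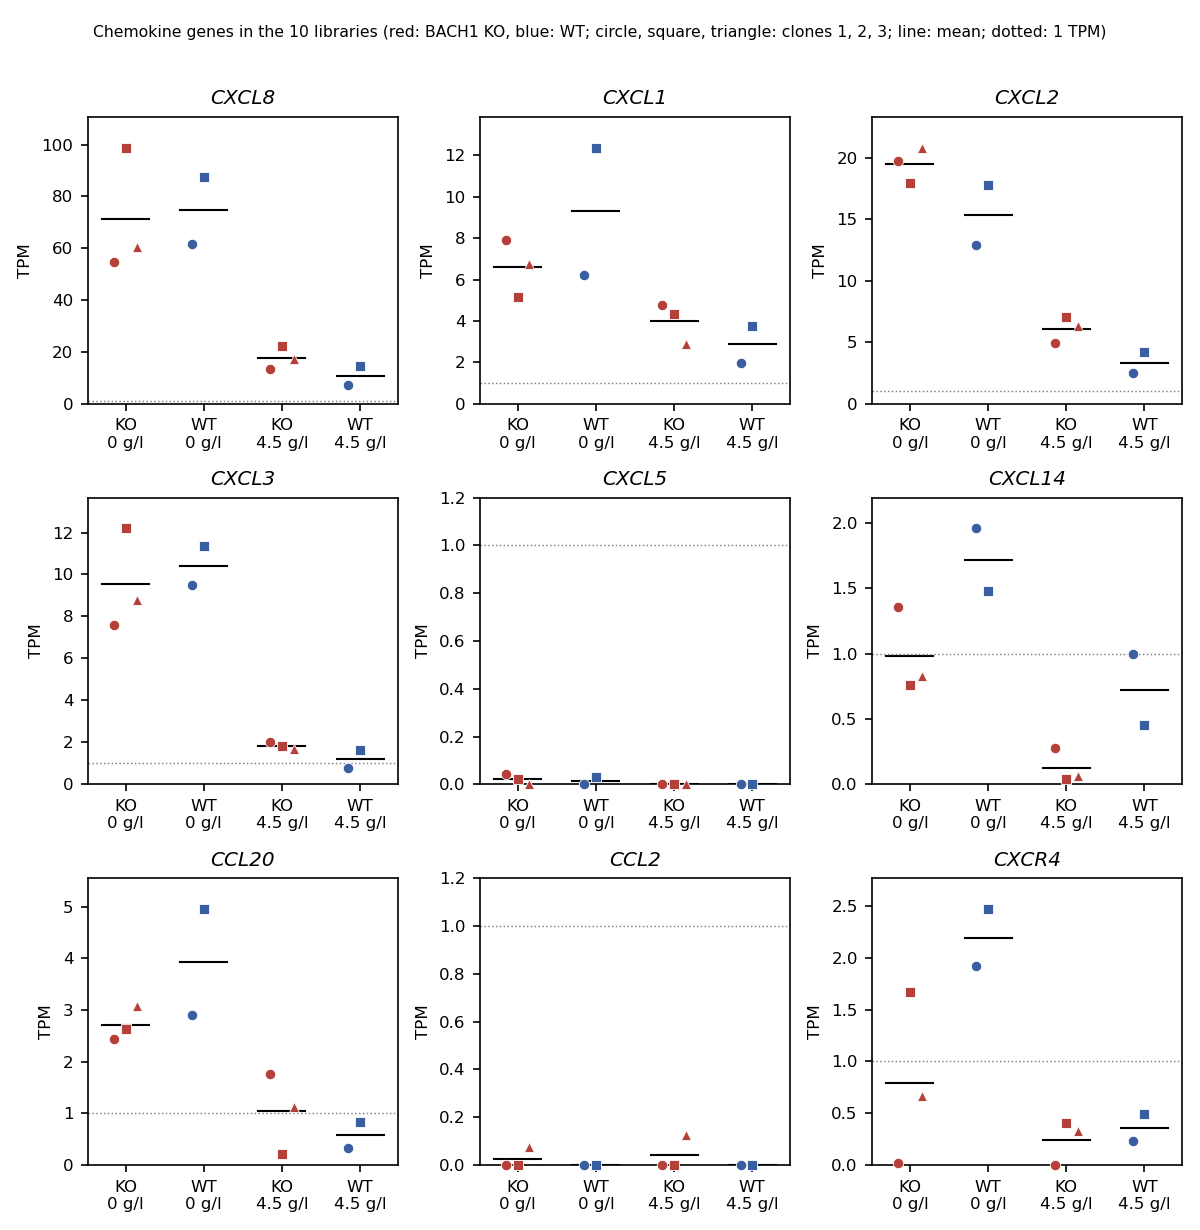
TPM (linear vertical axis, a scale of its own in each panel) of the 9 chemokine genes in KO and WT libraries at 0 and at 4.5 g/liter glucose, with red for BACH1 KO, blue for WT, a symbol for each clone and a line at the group mean. CXCL8 reached 98.9 TPM at 0 g/liter, whereas CXCL5 and CCL2 stayed below 0.13 TPM in each library.

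CXCL8 encodes interleukin-8, the main human neutrophil attractant, and had the highest level of the 9 genes, at a mean of 43.7 TPM over the 10 libraries. In KO clones 1, 2 and 3 it was at 54.6, 98.9 and 60.3 TPM at 0 g/liter, against 13.3, 22.3 and 17.2 TPM at 4.5 g/liter. In WT clones 1 and 2 it was at 61.7 and 87.5 TPM at 0 g/liter, against 7.19 and 14.5 TPM at 4.5 g/liter. All 5 libraries without glucose thus stood above all 5 with glucose, and clone 2 was the highest of its genotype in each medium. The log2 fold change was 1.94 in KO clones (SE 0.30, limma adjusted p = 0.00219) and 2.73 in WT clones (SE 0.37, limma adjusted p = 0.00195). By clone, the level at 0 g/liter was 3.51 to 4.44 times that at 4.5 g/liter in KO clones and 6.05 and 8.58 times in WT clones. Group means were 71.3 ± 24.1 TPM in KO (SD, n = 3) and 74.6 ± 18.2 TPM in WT (SD, n = 2) at 0 g/liter, and 17.6 ± 4.48 TPM in KO and 10.8 ± 5.14 TPM in WT at 4.5 g/liter, and the 2 genotypes overlapped in each medium.

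CXCL2, a CXCR2 ligand also called MIP-2 alpha, stood next in level. Its values were 19.7, 18.0 and 20.9 TPM in KO clones at 0 g/liter, against 4.95, 7.03 and 6.35 TPM at 4.5 g/liter. WT clones had 12.9 and 17.8 TPM at 0 g/liter, against 2.47 and 4.22 TPM at 4.5 g/liter. The media did not overlap in either genotype, and in each medium the lowest KO library stood just above the highest WT library. Without glucose the log2 fold change was 1.54 in KO clones (SE 0.19, limma adjusted p = 0.000814) and 1.92 in WT clones (SE 0.23, limma adjusted p = 0.00116).

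CXCL3, a close relative of CXCL1 and CXCL2, was at 7.58, 12.2 and 8.80 TPM in KO clones at 0 g/liter, against 2.04, 1.81 and 1.68 TPM at 4.5 g/liter. WT clones had 9.48 and 11.4 TPM at 0 g/liter, against 0.761 and 1.63 TPM at 4.5 g/liter. Again no library without glucose was as low as any with glucose. CXCL3 had a log2 fold change of 1.87 in KO clones (SE 0.20, limma adjusted p = 0.000448) and 2.40 in WT clones (SE 0.25, limma adjusted p = 0.000578).

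CXCL1, also known as GRO alpha, moved less. It was at 7.92, 5.14 and 6.76 TPM in KO clones at 0 g/liter, against 4.75, 4.32 and 2.88 TPM at 4.5 g/liter. In WT clones it was at 6.24 and 12.4 TPM at 0 g/liter, against 1.96 and 3.76 TPM at 4.5 g/liter. The lowest KO library without glucose, that of clone 2, was 1.19 times its own partner with glucose. The log2 fold change was 0.61 in KO clones (95% interval -0.02 to 1.25, limma adjusted p = 0.133) and 1.39 in WT clones (SE 0.35, limma adjusted p = 0.0208). With the clone as a block in the same model, the KO change had an adjusted p of 0.0166. The WT call rested on single libraries, since limma's adjusted p was 0.148 without WT clone 1 at 4.5 g/liter (log2 fold change 1.05) and 0.137 without WT clone 2 at 0 g/liter (log2 fold change 0.95).

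CXCL1, CXCL2 and CXCL3 share stretches of mRNA, which bears on how reads were divided among them. Of the distinct 31-base words in the GENCODE transcripts, 13.7% of those of CXCL1, 23.6% of those of CXCL2 and 9.23% of those of CXCL3 also occurred in another gene, against 0 for CXCL8. CXCL1 and CXCL2 had 165 such words in common, and CXCL2 and CXCL3 had 200. The summed level of the 3 genes was 35.2, 35.3 and 36.4 TPM in KO clones and 28.6 and 41.5 TPM in WT clones at 0 g/liter. At 4.5 g/liter the sum was 11.7, 13.2 and 10.9 TPM in KO clones and 5.19 and 9.61 TPM in WT clones. The sum rose without glucose by 1.51 on the log2 scale in KO clones (SE 0.20, limma adjusted p = 0.00112) and by 2.13 in WT clones (SE 0.25, limma adjusted p = 0.000941).

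CXCL5, the remaining CXCR2 ligand among the 9 genes, was listed at 0 in 7 libraries. Its highest value was 0.0413 TPM, in KO clone 1 at 0 g/liter, so of the 5 genes with the kappa-B match it was the one whose mRNA was hardly measured. CCL2, the monocyte attractant MCP-1, was listed at 0 in 8 libraries. Its remaining values, 0.0768 TPM at 0 g/liter and 0.126 TPM at 4.5 g/liter, were both from KO clone 3.

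CCL20, the ligand of CCR6 on dendritic cells and some lymphocytes, was at 2.44, 2.63 and 3.08 TPM in KO clones at 0 g/liter, against 1.77, 0.219 and 1.13 TPM at 4.5 g/liter. In WT clones it was at 2.91 and 4.96 TPM at 0 g/liter, against 0.322 and 0.827 TPM at 4.5 g/liter. KO clone 2 with glucose had the lowest value of all 10. The log2 fold change was 1.63 in WT clones (SE 0.37, limma adjusted p = 0.0151). In KO clones it was 0.94 (SE 0.30, limma adjusted p = 0.0454), a call that held in 5 of 19 alternative settings, in which the adjusted p ran from 0.0129 to 0.127. The largest of these was without KO clone 2 at 4.5 g/liter, where the log2 fold change was 0.61, and with a pseudocount of 0.1 it was 1.64 (adjusted p = 0.0725). In WT clones, leaving out clone 1 at 4.5 g/liter gave an adjusted p of 0.110, clone 2 at 4.5 g/liter one of 0.0554 and clone 2 at 0 g/liter one of 0.106.

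CXCL14, a chemokine made by epithelia that lacks the Glu-Leu-Arg motif, was near 1 TPM. It was at 1.36, 0.761 and 0.829 TPM in KO clones at 0 g/liter, against 0.277, 0.0424 and 0.0624 TPM at 4.5 g/liter. In WT clones it was at 1.96 and 1.48 TPM at 0 g/liter, against 0.997 and 0.451 TPM at 4.5 g/liter. Each KO library was below each WT library in the same medium, and each clone was higher without glucose. The study picked CXCL14 from these libraries for its lower level in KO clones, so that direction is not independent evidence here. Separately, the study reported by qPCR that BACH1 knockout counteracted the rise of CXCL14 without glucose. It also reported lower CXCL14 mRNA in this line with a BACH1 inhibitor and, without glucose, with BACH1 siRNA. The log2 fold change without glucose was 0.81 in KO clones (SE 0.21, limma adjusted p = 0.0188) and 0.67 in WT clones (95% interval 0.09 to 1.24, limma adjusted p = 0.0872). With a pseudocount of 0.1 in place of 1 these changes were 2.35 in KO and 1.21 in WT clones. With the clone as a block the WT change had an adjusted p of 0.0379. In KO clones, leaving out clone 2 at 4.5 g/liter gave an adjusted p of 0.0641, leaving out clone 3 at 4.5 g/liter 0.0583, and quantile normalization 0.179.

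CXCR4, the receptor of CXCL12 and the only receptor gene of the 9, differed most among KO clones. It was at 0.0237, 1.67 and 0.668 TPM in KO clones at 0 g/liter, against 0, 0.407 and 0.327 TPM at 4.5 g/liter. WT clones had 1.92 and 2.47 TPM at 0 g/liter, against 0.227 and 0.490 TPM at 4.5 g/liter. KO clone 1 was at or near 0 in both media, while the other clones of either genotype were 2.04 to 8.44 times higher without glucose. For CXCR4 the log2 fold change was 0.43 in KO clones (95% interval -0.31 to 1.16, limma adjusted p = 0.353) and 1.23 in WT clones (SE 0.40, limma adjusted p = 0.0523). The KO value was 0.09 without KO clone 2 at 0 g/liter and 0.78 without KO clone 1 at 0 g/liter, and with a pseudocount of 0.1 the changes were 0.99 in KO and 2.37 in WT clones. The WT change was called in 5 of 19 alternative settings, since KO libraries also enter the shared estimate of spread. Among these were the clone as a block (limma adjusted p = 0.00872) and KO clone 2 left out at 0 g/liter (0.0219). Another was both libraries of KO clone 1 left out (0.0103), a setting chosen after seeing the data. With libraries left out the WT log2 fold change was 1.09 to 1.37.

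**Figure D2:**
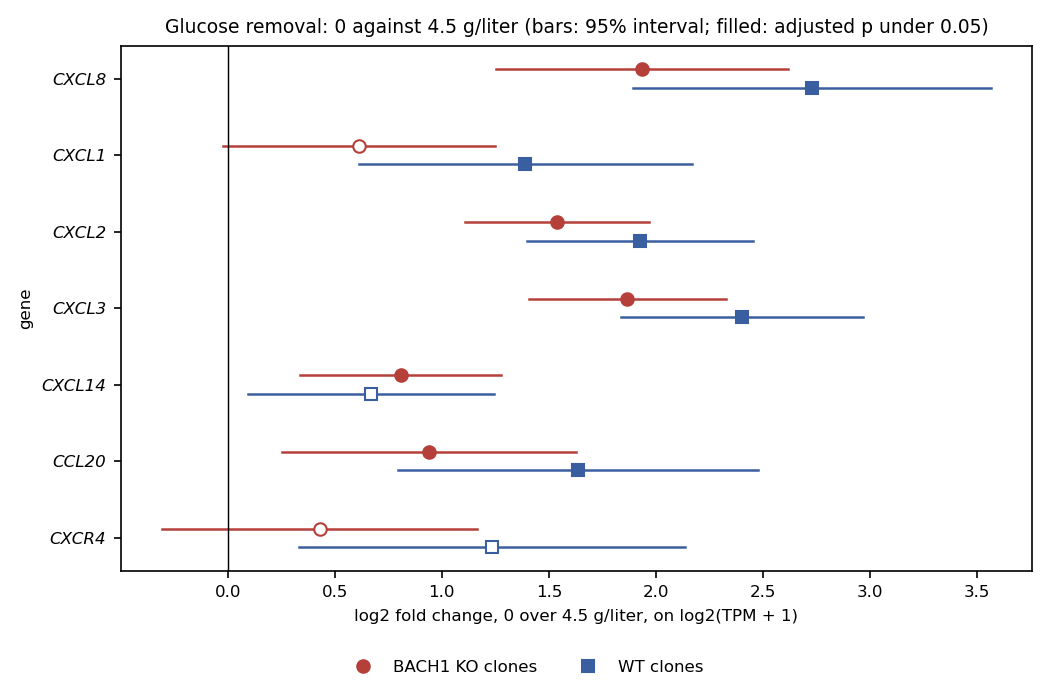
Log2 fold change of 0 over 4.5 g/liter glucose on log2(TPM + 1) (horizontal axis) for the 7 tested chemokine genes, with red circles for BACH1 KO clones, blue squares for WT clones, bars for 95% intervals and filled symbols for adjusted p under 0.05. CXCL8, CXCL3 and CXCL2 had filled symbols in both genotypes, from 1.54 to 2.73, and CXCR4 in neither.

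CXCL1, CXCL2, CXCL3, CXCL8 and CCL20 were higher at 0 g/liter in each of the 5 clones, a pattern that 18.4% of all tested genes had. In these 5 genes KO libraries at 0 g/liter were also all above those at 4.5 g/liter, as in 11.8% of all tested genes, and so were WT libraries, as in 24.8% of all tested genes. CXCL14 and CXCR4 were likewise higher in each clone, but they entered the test through libraries at 0 g/liter and are not counted here. Relative to the table as a whole these are rises against a shift the other way, since the median log2 fold change of the 13418 genes was -0.15 in KO and -0.17 in WT clones. Scaling the libraries by median ratios moved these medians by 0.12 and 0.15 and the share of higher genes among those called to 52.9% from 31.3% in KO and to 58.8% from 31.9% in WT clones. Under that scaling 5 of the 9 genes were called higher in each genotype, with none lost or gained.

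The comparison of KO with WT clones asked whether BACH1 bears on the chemokine levels in either medium. At 0 g/liter none of the 9 genes was called by limma, where 0.0373% of all tested genes were, and 1 (CXCR4) had an unadjusted p under 0.05. At 4.5 g/liter none was called, where 0.0745% of all tested genes were, and 2 (CXCL2 and CXCL14) had an unadjusted p under 0.05. A missed threshold does not show that levels were alike. Of the neutrophil attractants at 4.5 g/liter, KO minus WT on the log2 scale was 0.70 for CXCL8 (95% interval -0.07 to 1.46), 0.73 for CXCL2 (0.25 to 1.21), 0.40 for CXCL3 (-0.12 to 0.92) and 0.39 for CXCL1 (-0.32 to 1.10). At 0 g/liter the same differences were -0.09 for CXCL8 (95% interval -0.86 to 0.67), 0.34 for CXCL2 (-0.14 to 0.83), -0.14 for CXCL3 (-0.65 to 0.38) and -0.39 for CXCL1 (-1.10 to 0.32). The values at 4.5 g/liter leaned on 1 library: without WT clone 1 at 4.5 g/liter they were 0.24 for CXCL8, 0.44 for CXCL2, 0.11 for CXCL3 and 0.045 for CXCL1. Without WT clone 2 at 0 g/liter the differences at 0 g/liter were 0.15 for CXCL8 and 0.05 for CXCL1. All KO libraries were above all WT libraries for CXCL2 at 0 g/liter, as were 5.69% of tested genes, and for CXCL2 and CXCL3 at 4.5 g/liter, as were 6.30% of tested genes.

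For CXCL14, KO minus WT was -0.46 at 0 g/liter (95% interval -0.99 to 0.06) and -0.60 at 4.5 g/liter (-1.13 to -0.08), and with a pseudocount of 0.1 it was -0.78 at 0 g/liter and -1.92 at 4.5 g/liter. For CXCR4 it was -0.94 at 0 g/liter (95% interval -1.76 to -0.12) and -0.14 at 4.5 g/liter (-0.96 to 0.69). Without both libraries of KO clone 1, a setting chosen after seeing the data, the CXCR4 difference at 0 g/liter was -0.59, and with all libraries and a pseudocount of 0.1 it was -2.04. For CCL20 it was -0.38 at 0 g/liter (95% interval -1.15 to 0.39) and 0.31 at 4.5 g/liter (-0.45 to 1.08). All KO libraries were below all WT libraries for CXCL14 and CXCR4 at 0 g/liter, and for CXCL14 at 4.5 g/liter. Of tested genes, 7.98% were so separated at 0 g/liter and 14.6% at 4.5 g/liter. CXCL14 and CXCR4 entered the test through libraries at 0 g/liter, the WT ones among them. The share at 0 g/liter is therefore no yardstick for these genes. CXCL14 was also picked by the study for its lower level in KO clones.

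The response to glucose removal itself was also compared between genotypes, as the KO change minus the WT change. None of the 9 genes was called by limma, where 0.00745% of all tested genes were, and none had an unadjusted p under 0.05. The difference of responses on the log2 scale was -0.79 for CXCL8 (95% interval -1.87 to 0.29), -0.78 for CXCL1 (-1.78 to 0.23), -0.54 for CXCL3 (-1.27 to 0.19) and -0.39 for CXCL2 (-1.07 to 0.29). It was -0.81 for CXCR4 (95% interval -1.97 to 0.36), -0.69 for CCL20 (-1.78 to 0.39) and 0.14 for CXCL14 (-0.60 to 0.88). Leaving out 1 or 2 libraries moved these values to between -1.25 and -0.33 for CXCL8, -1.22 and -0.33 for CXCL1, -0.83 and -0.25 for CXCL3 and -0.68 and -0.09 for CXCL2, with the extremes set by WT libraries. For CXCL14 the value was 1.14 with a pseudocount of 0.1, and by clone its level at 0 g/liter was 4.89 to 17.9 times that at 4.5 g/liter in KO clones and 1.96 and 3.27 times in WT clones. By clone, the log2 change of CXCL1 was 0.63, 0.21 and 1.00 in KO clones, against 1.29 and 1.49 in WT clones. That of CXCL2 was 1.80, 1.24 and 1.57 in KO clones, against 2.00 and 1.85 in WT clones. Responses of the KO clones were all below those of the WT clones for CXCL1, CXCL2, CXCL3 and CXCL8. This was so in 6.93% of all tested genes and in 18.1% of the 1002 genes called higher without glucose in WT clones. For CXCL3 this rested on a narrow gap, since KO clone 2 was at 2.232 and WT clone 2 at 2.234. CXCR4 had the same order, but it is not set against these shares. It entered the test through libraries at 0 g/liter, the WT ones among them, and was not called in WT clones.

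**Figure D3:**
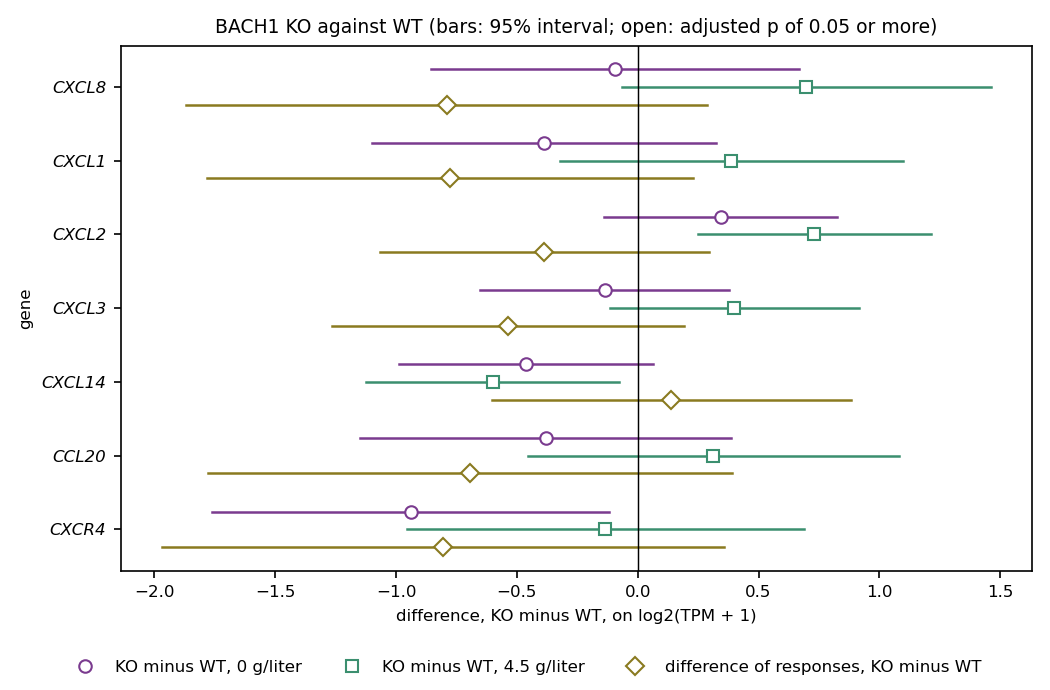
KO minus WT on log2(TPM + 1) (horizontal axis) for the 7 tested chemokine genes at 0 g/liter (circles) and 4.5 g/liter glucose (squares), and the difference of the responses to glucose removal (diamonds), with bars for 95% intervals. Open symbols mark adjusted p of 0.05 or more, which held for every value. The difference of responses was below 0 for 6 of the 7 genes and 0.14 for CXCL14.

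The genes most like CXCL8, CXCL3, CXCL2 and CXCL1, which each averaged at least 5 TPM, were sought by Pearson correlation of log2(TPM + 1) over the 10 libraries, which share media and clones. CXCL8 was most like CXCL3 (r = 0.981), KDM6B, a histone demethylase gene (r = 0.981), and GABARAPL1, an autophagy gene (r = 0.980). CXCL3 was most like JUNB, an AP-1 subunit gene (r = 0.990), NRARP (r = 0.988) and PPP1R15A, which encodes a phosphatase subunit of the integrated stress response (r = 0.988). CXCL2 was most like SCG5 (r = 0.976), IL1A (r = 0.969) and PRDX5 (r = 0.967). CXCL1 was most like MCOLN3 (r = 0.952), AC246795.3 (r = 0.906) and TMEM40 (r = 0.902). Among CXCL1, CXCL2, CXCL3 and CXCL8, r ran from 0.824 to 0.981 over the 10 libraries. With the group means taken out, r among them ran from 0.238 to 0.808.

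The other chemokine genes were mostly at or near 0. Of 40 other ligand genes in the table, 18 were at 0 in every library, 36 were below 1 TPM in every library and 4 were tested. CCL26, which encodes eotaxin-3, an eosinophil attractant and CCR3 ligand, had the largest rise of the 4. It was at 19.7, 47.4 and 36.5 TPM in KO clones at 0 g/liter, against 0.677, 0.136 and 0.609 TPM at 4.5 g/liter. In WT clones it was at 49.7 and 46.8 TPM at 0 g/liter, against 0.711 and 0.737 TPM at 4.5 g/liter. CCL26 was thus below 1 TPM in every library with glucose, so it entered the test only through libraries without it. Its log2 fold change was 4.53 in KO clones (SE 0.28, limma adjusted p = 2.39e-05) and 4.84 in WT clones (SE 0.35, limma adjusted p = 7.78e-05). CXCL16, the ligand of CXCR6, was called higher in KO clones (log2 fold change 0.72, SE 0.22, limma adjusted p = 0.0364) and was at 0.72 in WT clones (limma adjusted p = 0.0819). The KO call for CXCL16 was lost after quantile normalization. With glucose CXCL16 reached 1 TPM only in WT clone 1 (1.28 TPM), so it too passed the filter through libraries without glucose. CCL28 averaged 2.10 TPM and MIF 589 TPM, and neither was called. The median log2 fold change of the 4 ligand genes, CCL26 and CXCL16 included, was 0.41 in KO and 0.55 in WT clones. CCL28 was at -0.03 in KO and 0.38 in WT clones, and MIF at 0.10 and 0.07.

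Of 22 other chemokine receptor genes, 21 were below 1 TPM in every library, CXCR1 and CXCR2 among them. CCRL2, an atypical receptor that binds chemerin and does not signal through G proteins, averaged 19.2 TPM. It was at 13.3, 28.8 and 9.30 TPM in KO clones and 25.4 and 28.2 TPM in WT clones at 0 g/liter. At 4.5 g/liter it was at 10.2, 18.8 and 8.40 TPM in KO clones and 22.4 and 27.2 TPM in WT clones. KO minus WT at 4.5 g/liter was -1.01 on the log2 scale (SE 0.42, limma adjusted p = 1), and no contrast called it.

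Among 19 genes of NF-kB subunits and their feedback regulators, 5 were called higher and 2 lower without glucose in KO clones, and 3 higher and 1 lower in WT clones. Over all tested genes the shares were 9.05% higher and 19.9% lower in KO clones, and 7.47% higher and 15.9% lower in WT clones. The median log2 fold change was 0.05 in KO and 0.16 in WT clones. TNFAIP3, which encodes the ubiquitin-editing NF-kB inhibitor A20, rose by 1.39 on the log2 scale in KO clones (SE 0.25, limma adjusted p = 0.00380) and by 1.66 in WT clones (SE 0.30, limma adjusted p = 0.00625). NFKBIZ, a nuclear co-regulator of NF-kB targets, rose by 1.15 on the log2 scale in KO clones (SE 0.14, limma adjusted p = 0.000617) and by 1.27 in WT clones (SE 0.17, limma adjusted p = 0.00154). TNIP3 rose by 0.79 on the log2 scale in KO clones (SE 0.16, limma adjusted p = 0.00773) and was at 0.62 in WT clones (SE 0.20, limma adjusted p = 0.0528). NFKB1, which encodes the p105 precursor of p50, fell by 0.44 on the log2 scale in KO clones (SE 0.12, limma adjusted p = 0.0196) and by 0.58 in WT clones (SE 0.14, limma adjusted p = 0.0197). Under median-ratio scaling no gene of this list was called lower in either genotype, and with mitochondrial genes removed the KO median was -0.01.

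Chemokine mRNAs carry AU-rich elements that set how long they last. For the decay and stability of such mRNAs 10 genes were tested, among them signalling genes such as MAPK14. In KO clones 5 were called higher and 4 lower without glucose, and in WT clones 4 higher and 4 lower, with medians of 0.23 and 0.14. Over all tested genes 9.05% were called higher and 19.9% lower in KO clones, and 7.47% and 15.9% in WT clones. Under median-ratio scaling the medians were 0.37 in KO and 0.31 in WT clones, and 3 genes were called lower in each genotype. ZFP36, which encodes the decay factor tristetraprolin, was at 97.5, 172 and 92.4 TPM in KO clones at 0 g/liter, against 20.7, 15.6 and 18.1 TPM at 4.5 g/liter. In WT clones ZFP36 was at 113 and 112 TPM at 0 g/liter, against 18.7 and 19.2 TPM at 4.5 g/liter. Its log2 fold change was 2.62 in KO clones (SE 0.21, limma adjusted p = 0.000101) and 2.51 in WT clones (SE 0.26, limma adjusted p = 0.000578). ZC3H12A, which encodes the endonuclease Regnase-1, rose by 2.17 on the log2 scale in KO clones (SE 0.32, limma adjusted p = 0.00163) and by 2.02 in WT clones (SE 0.39, limma adjusted p = 0.00774). ELAVL1, which encodes the stabilizing protein HuR, fell by 0.62 on the log2 scale in KO clones and by 0.63 in WT clones (limma adjusted p = 0.00142 and 0.00487). MAPK14, which encodes p38 alpha, fell by 0.70 on the log2 scale in each genotype (limma adjusted p = 0.00117 in KO and 0.00433 in WT clones).

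Of 13 tested genes that act downstream of CXCR4 or switch it off, 2 were called higher and 3 lower without glucose in each genotype, and the median was -0.24 in KO and -0.22 in WT clones. Of all tested genes 9.05% were called higher and 19.9% lower in KO clones, and 7.47% and 15.9% in WT clones. Under median-ratio scaling 3 genes of the list were called higher and 2 lower in each genotype, with medians of -0.11 in KO and -0.06 in WT clones. RGS2, a GTPase-activating protein for G protein alpha subunits, was at 72.8, 173 and 118 TPM in KO clones at 0 g/liter, against 2.67, 2.19 and 1.72 TPM at 4.5 g/liter. In WT clones RGS2 was at 192 and 194 TPM at 0 g/liter, against 2.07 and 2.75 TPM at 4.5 g/liter. Its log2 fold change was 5.18 in KO clones (SE 0.27, limma adjusted p = 8.21e-06) and 5.84 in WT clones (SE 0.33, limma adjusted p = 1.76e-05). RGS16, of the same family, was at 0.0716 to 0.304 TPM in the libraries with glucose, so it too entered the test only through those without it, where it was at 1.81 to 2.99 TPM in KO and 2.56 and 3.76 TPM in WT clones. It rose by 1.54 on the log2 scale in KO clones (SE 0.20, limma adjusted p = 0.000932) and by 1.82 in WT clones (SE 0.24, limma adjusted p = 0.00169). GRK2 and GRK6, kinases that phosphorylate active receptors, fell by 0.48 and 0.60 on the log2 scale in KO clones and by 0.75 and 0.84 in WT clones.

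Of 10 tested cytokine genes often induced together with these chemokines, 3 were called higher in KO clones and 4 in WT clones and none lower, with medians of 0.67 and 1.31, where 9.05% of all tested genes were called higher in KO and 7.47% in WT clones. IL1B, which encodes interleukin-1 beta, was at 20.9, 31.6 and 36.0 TPM in KO clones at 0 g/liter, against 6.86, 5.64 and 6.18 TPM at 4.5 g/liter. In WT clones IL1B was at 34.7 and 53.2 TPM at 0 g/liter, against 5.80 and 12.7 TPM at 4.5 g/liter. Its log2 fold change was 2.05 in KO clones (SE 0.29, limma adjusted p = 0.00135) and 2.19 in WT clones (SE 0.35, limma adjusted p = 0.00357). IL1A, the related alarmin gene, rose by 2.04 on the log2 scale in KO clones (SE 0.25, limma adjusted p = 0.000781) and by 2.19 in WT clones (SE 0.31, limma adjusted p = 0.00207). CSF2, which encodes GM-CSF, rose by 2.23 on the log2 scale in KO clones (SE 0.52, limma adjusted p = 0.0129) and by 3.20 in WT clones (SE 0.64, limma adjusted p = 0.00911). IL32 was called in WT clones (log2 fold change 0.81, SE 0.26, limma adjusted p = 0.0496), a call lost when mitochondrial genes were removed. Under these 3 scalings (median ratios, quantiles and removal of mitochondrial genes) no called gene of the 6 lists changed its sign. No gene of these 6 lists was called between KO and WT clones in either medium or in the difference of responses.

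**Figure D4:**
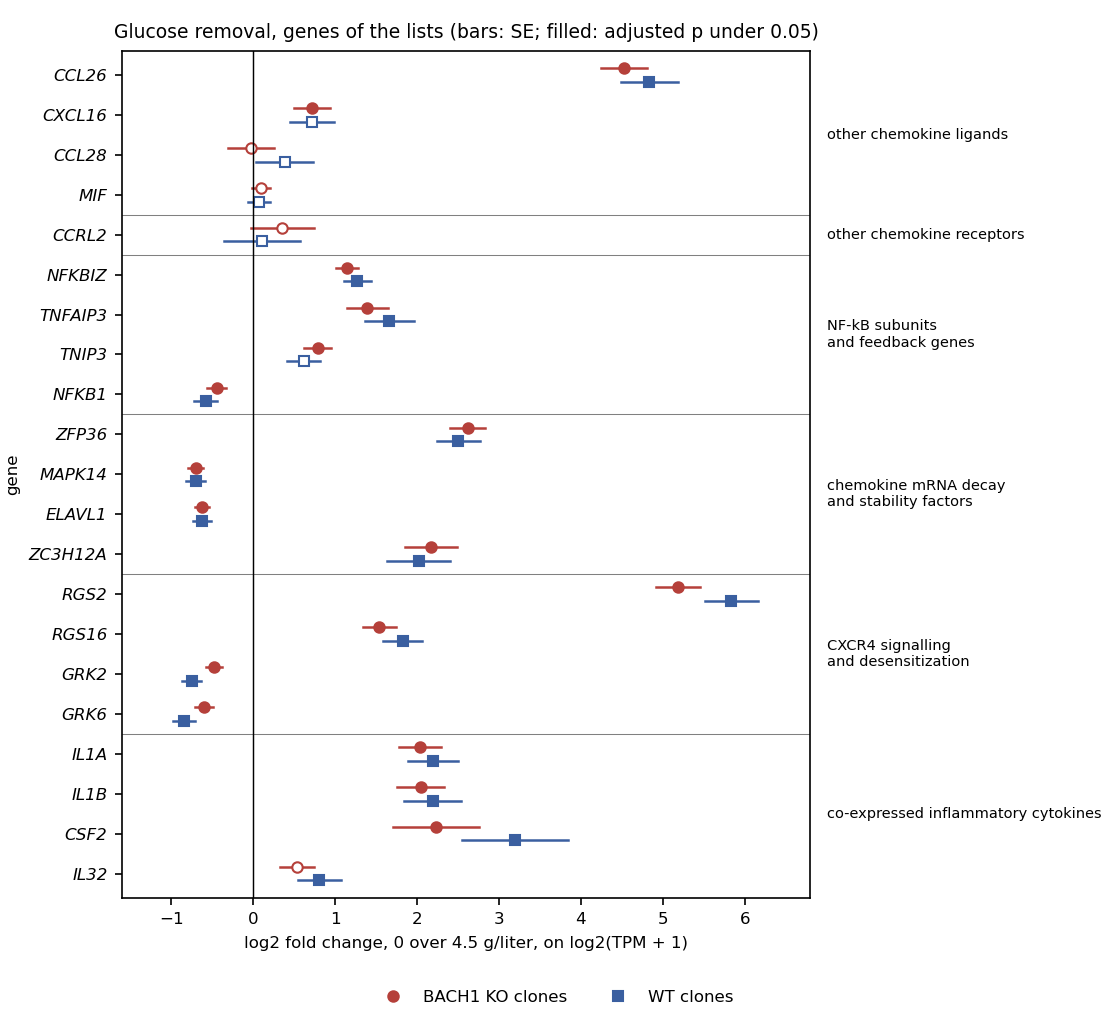
Log2 fold change of 0 over 4.5 g/liter glucose on log2(TPM + 1) (horizontal axis) for the named genes of the 6 lists, with red circles for BACH1 KO clones, blue squares for WT clones, bars for the SE and filled symbols for adjusted p under 0.05. RGS2 and CCL26 lay farthest to the right, above 4.5 in both genotypes, and MAPK14, ELAVL1, GRK2, GRK6 and NFKB1 lay left of 0.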

How the data were processed

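The deposited table holds TPM per gene symbol, which the authors made from poly-A libraries (single-end reads, bcl2fastq 2.19) by kallisto 0.44.0 pseudoalignment (index: GRCh38.p12 transcripts); its annotation release is not given in the sources used here. TPM keeps no depth, so no counting error can be given. Of 36459 rows, 27 whose symbols had become dates were left out (0.107% to 0.151% of TPM). Genes with at least 1 TPM in 2 libraries were fitted with limma 3.58.1 in R 4.3.3 on log2(TPM + 1), with means of the 4 groups, a mean-variance trend and 6 residual degrees of freedom. The method was tested on simulated data. A clone number names 1 clone in both media; deviations of its 2 libraries from their group means correlated at 0.426 to 0.609 in KO and 0.0991 in WT clones, so clones were also blocked. Members and gene lists were chosen with earlier results of these data known. From each list up to 4 called genes were named by smallest p, and other ligand and receptor genes with a mean of at least 1 TPM. An exact permutation test of groups this small cannot reach 0.05. Alternatives were other pseudocounts, filters and scalings, no trend, the block and each library left out. Promoters came from RefSeq and shared 31-base words from GENCODE release 44. The level of 1 marker gene is not reported here.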

Additional observations from a re-analysis of the deposited data

How the results depend on the processing

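CXCL8, CXCL2 and CXCL3 were called higher without glucose in both genotypes under all 20 alternatives, with log2 fold changes of 1.41 to 2.28 in KO and 1.63 to 3.19 in WT clones. Of the 9 genes, 5 were called in KO clones, against 3 with a filter at a mean of 5 TPM, which leaves out CXCL14, CCL20 and CXCR4, 3 after quantile normalization, and 3 to 5 with libraries left out. In WT clones 5 were called, and 3 to 6 with libraries left out, the 3 being without clone 1 at 4.5 g/liter or without clone 2 at 0 g/liter. With the replicate block, 6 were called in KO clones (CXCL1 added, 0.61, adjusted p = 0.0166) and 7 in WT clones (CXCL14 and CXCR4 added), the block changed no other call of a chemokine gene, and the count over all genes was 6237 against 3878 in KO and 5504 against 3138 in WT clones. No alternative called a chemokine gene between genotypes or in the difference of responses. Signs turned with libraries left out for CXCL1 (-0.83 to 0.054) and CXCL8 (-0.35 to 0.15) in KO minus WT at 0 g/liter, CXCR4 in KO minus WT at 4.5 g/liter (-0.28 to 0.015) and CXCL14 in the difference of responses (-0.091 to 0.37). The cause was not tested.

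Counts over all genes moved by more than 1.5 times as follows. For glucose removal the KO count was 2469 without KO clone 2 at 4.5 g/liter, and the WT count was 765 to 1036 without 1 WT library and 4962 without both libraries of KO clone 1, a setting chosen after seeing the data. The count of KO against WT at 0 g/liter was 5, against 28 with no filter, 2 at a mean of 5 TPM, 38 without KO clone 1 and 1 to 9 without 1 library. At 4.5 g/liter it was 10, against 4 at a mean of 5 TPM, 2 without WT clone 1 at 4.5 g/liter and 40 without KO clone 1. The difference of responses called 1 gene, against 3 with a pseudocount of 0.1 or 0.5, without mitochondrial genes or with the block, 6 with no filter, and 0 to 2 without 1 library. Genes near 1 TPM are limited by the unknown depth.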
